A study of Mus musculus with 57 samples.

Results

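The subject here is 10 genes of the circadian clock, chosen by symbol: *Arntl*, *Npas2*, *Nfil3* and *Cry1* (the *Arntl* phase) and *Per1*, *Per2*, *Per3*, *Dbp*, *Nr1d1* and *Ciart* (the *Per* and *Dbp* phase). All 10 were found by name among the 25416 genes of the acute count table and the 54658 genes of the chronic count table, and all 10 passed the filter on low counts in both. Their lowest count in any heart was 64 in the acute study and 32 in the chronic study, so none of them was near the limit of detection.

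RNA-seq was performed on 57 heart samples of male C57BL6/J (B6) wild-type mice kept on a 12 h light-dark cycle, to ask how doxorubicin (Doxo), an anthracycline chemotherapy that harms the heart, altered expression and whether nicotinamide mononucleotide (NMN), a precursor of NAD+, modified that response. In the acute study, mice bought at 9 weeks of age received injections of saline only (Ctrl, n = 14), 1 injection of Doxo at 20 mg/kg with saline in place of NMN (Doxo, n = 13), or the same Doxo dose with NMN injected at 180 mg/kg/day from 5 days before Doxo (Doxo-NMN, n = 13), and hearts were collected on day 5. In the chronic study, mice aged 14 to 16 weeks received PBS (Ctrl, n = 5), 5 Doxo injections of 4 mg/kg each (Doxo, n = 6), or the same injections with NMN in the drinking water at 500 mg/kg/day (Doxo-NMN, n = 6), and hearts were collected on day 60. No group received NMN without Doxo. By the study's methods each sample of either study is a separate heart. Hearts are those of mice still alive on day 5 or day 60. Acute hearts were taken 2 h after the last NMN injection. The clock hour of collection is not given in the sources used here for any heart. A difference in collection hour between groups and a change of the clock itself therefore cannot be told apart in what follows.

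The clock is a feedback loop that runs in nearly every cell. The activators BMAL1 (encoded by *Arntl*) and CLOCK, or its relative NPAS2, bind E-boxes and switch on the *Per* and *Cry* genes, *Nr1d1*, *Dbp* and *Ciart*, whose products in turn restrain them. NR1D1 (REV-ERB alpha) represses *Arntl*, *Npas2* and *Nfil3* through ROR elements, and DBP and NFIL3 compete as activator and repressor at D-boxes, so that in a mouse heart the transcripts of the *Arntl* group peak far from those of the *Per* and *Dbp* group over the day. *Per1* is in addition an early target of glucocorticoid and cAMP signalling.

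The hearts were deep enough for these genes: 32409622 to 52102850 counts per acute heart and 17769886 to 23862287 per chronic heart. Low acute counts were mostly even numbers (a median of 73.6% of counts of 1 to 20), so acute totals may not equal numbers of reads. Cardiomyocyte markers were high in every heart (6 genes, summed level 27210 to 75750 CPM in the acute study, CPM being counts scaled by library size), as a heart label requires. Some other markers moved with the groups as well. The summed level of 5 red cell genes ran from 437 to 4311 CPM in acute Ctrl hearts, from 1.19 to 338 CPM in Doxo hearts and from 0.209 to 2.81 CPM in Doxo-NMN hearts. Atrial markers were high in some hearts of each acute group, with *Myl4*, the atrial light chain, at or above 100 CPM in 8 of 14 Ctrl, 5 of 13 Doxo and 4 of 13 Doxo-NMN hearts. All 3 neutrophil genes that could be tested were called higher with Doxo and lower in Doxo-NMN against Doxo, and their list of 4 summed to 0.570 to 3.88 CPM in Ctrl, 1.40 to 255 CPM in Doxo and 2.85 to 26.8 CPM in Doxo-NMN hearts. Of 5 endothelial genes, 1 was called lower with Doxo (*Kdr*, log2 -0.95) and none higher. With Doxo, 3 of 5 fibroblast and 2 of 5 macrophage genes were called lower and none higher. Of all 14240 genes tested, 14.7% were called higher and 15.4% lower with Doxo, and 8.17% higher and 8.88% lower in Doxo-NMN against Doxo. In the edgeR test, the fibroblast gene *Dcn* (log2 0.50, adjusted p = 0.00917) and the macrophage gene *Cd68* (log2 0.45, adjusted p = 0.00771) rose with Doxo, by less than the 1.5-fold that a call needs. The summed levels of both lists overlapped between groups. The part of these cells in the results below was not tested, beyond the values within hearts low or high in *Myl4*. In whole tissue, fewer cells of a type and less RNA per cell cannot be told apart.

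2 libraries stood apart. The acute heart labelled Doxo replicate 6 had red cell markers at 338 CPM against 1.19 to 3.85 CPM in the other 12 Doxo hearts, and neutrophil markers at 1.40 CPM against 3.63 to 254 CPM. It was also the lowest Doxo heart for *Per1* (17.9 CPM), *Per2* (4.04 CPM), *Per3* (7.85 CPM) and *Ciart* (2.47 CPM), all within the Ctrl range or below it. The chronic heart labelled Doxo replicate 2 had red cell markers at 16.2 CPM against 183 to 355 CPM in the other 5 Doxo hearts, neutrophil markers at 4.71 CPM against 0.525 to 1.82 CPM, and glucocorticoid-induced genes at 1288 CPM in sum against 449 to 542 CPM. Both were kept under their labels, and values without them stand beside the results that rest on them.

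The regulatory letters of the loop could be read beside 6 of the 10 genes. RefSeq windows on GRCm38.p6 (the files' mm10), from 250 bases before to 50 bases after each annotated start, were found for 9 members (11 windows, since *Arntl* and *Per1* have an alternative start each) and searched on both strands for the E-box CACGTG, the D-box TTATGTAA or TTACGTAA, and the ROR element TAGGTCA or TGGGTCA. The same letters stand in 7.15%, 1.06% and 6.45% of all 32851 windows, in that order. Counted by gene, the shares are 8.09%, 1.23% and 7.35% of 27025 genes. The share of genes with any of these letters was not counted. An E-box was found for *Cry1*, *Per1* and *Ciart*, a D-box for *Per3* and a ROR element for *Arntl* and *Nfil3*, and no pair of matches shared a base. None of these letters was found in the windows of *Npas2*, *Dbp* and *Nr1d1*. The stretches are printed because they carry the 3 kinds of element through which the loop is wired. Capitals mark the matched element, and each run reads 5′ to 3′ on the gene's own strand.
Arntl: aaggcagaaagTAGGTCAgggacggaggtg
Nfil3: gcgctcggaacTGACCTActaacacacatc
Cry1: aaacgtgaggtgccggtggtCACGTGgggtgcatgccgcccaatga
Per1: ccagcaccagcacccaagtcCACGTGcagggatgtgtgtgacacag
Per3: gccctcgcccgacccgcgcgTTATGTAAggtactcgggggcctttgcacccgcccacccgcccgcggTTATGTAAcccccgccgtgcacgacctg
Ciart: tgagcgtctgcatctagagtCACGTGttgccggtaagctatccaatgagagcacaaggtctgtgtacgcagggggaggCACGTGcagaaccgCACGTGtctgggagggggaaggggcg

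The *Arntl* stretch (chr7:113207530-113207559, plus strand) begins inside the first exon, its element 30 bases after the alternative start. The window of the other *Arntl* start held no match. The *Nfil3* stretch (chr13:52981033-52981062, minus strand) lies in exon 1 by the GENCODE annotation and spans the RefSeq start. Its element begins 12 bases before that start and reads TGACCTA on the gene's strand, the reverse complement of TAGGTCA. The *Cry1* E-box (chr10:85185089-85185134, minus strand) sits 60 bases before the start. The *Per1* E-box (chr11:69098763-69098808, plus strand) sits 166 bases before a start that lies within an intron of the longest *Per1* transcript. *Per3* has 2 D-boxes, 205 and 158 bases before its start (chr4:151044796-151044890, minus strand). *Ciart* has 3 E-boxes, 116, 58 and 44 bases before its start (chr3:95882247-95882364, minus strand). A match is a description of letters, and no binding was measured here.

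**Figure D1:**
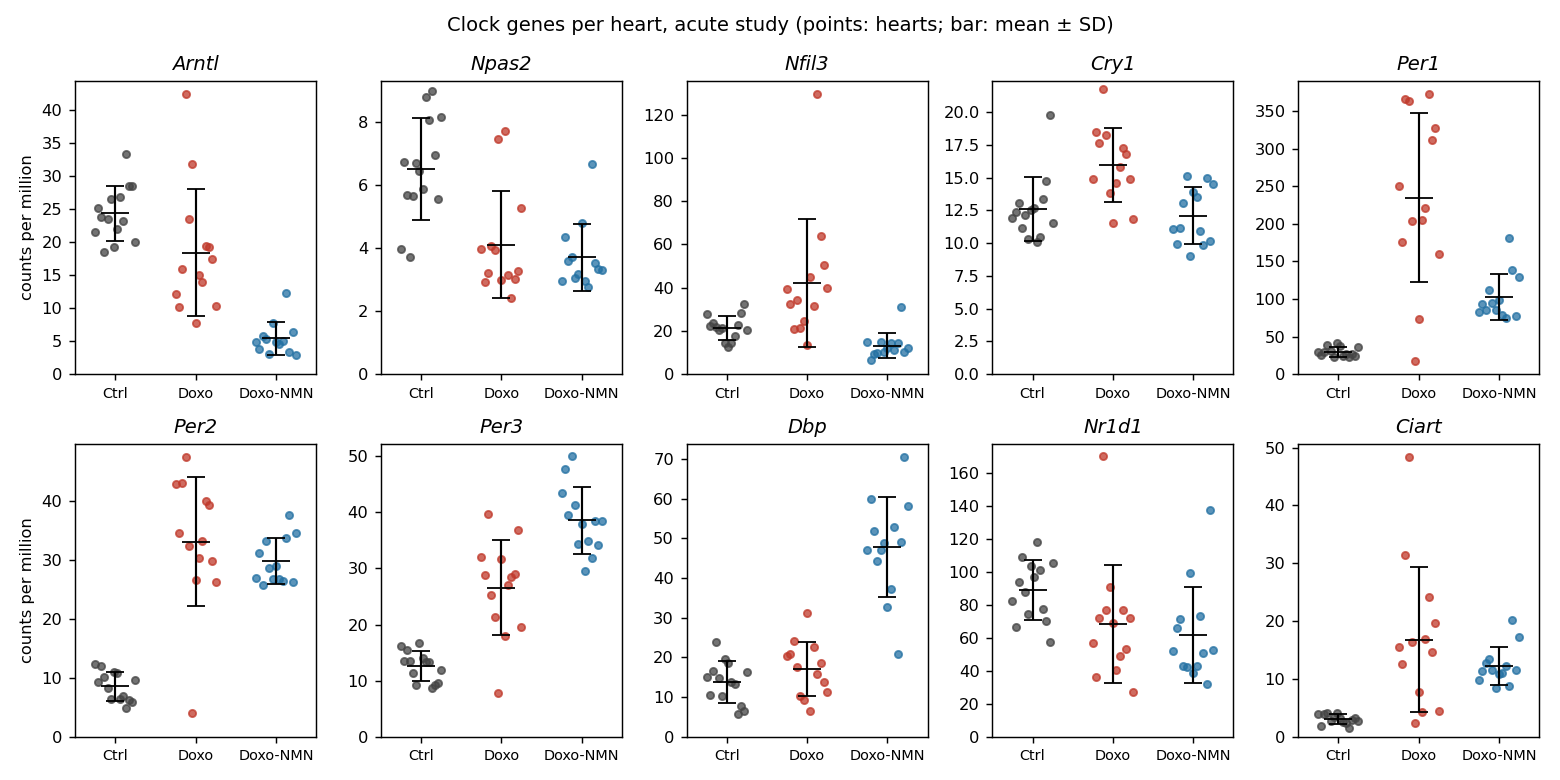
Level of each clock gene in CPM (y axis, from 0) in every heart of the acute study, by group. Each point is 1 heart and bars give the mean ± SD (14 Ctrl, 13 Doxo and 13 Doxo-NMN hearts). Arntl is lowest in Doxo-NMN hearts, Per1 is highest in Doxo hearts, and Dbp is highest in Doxo-NMN hearts.

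*Arntl*, the core activator (ENSMUSG00000055116, chr7:113207465-113314126), was lowest in the hearts given both agents. It ran from 18.5 to 33.4 CPM (median 23.7) in Ctrl hearts, from 7.79 to 42.4 CPM (median 15.9) in Doxo hearts and from 2.83 to 12.4 CPM (median 4.88) in Doxo-NMN hearts. Every Doxo-NMN heart lay below every Ctrl heart, and 12 of 13 lay below every Doxo heart. Of 13 Doxo hearts, 8 lay below every Ctrl heart and 1 lay above every Ctrl heart. By the quasi-likelihood test of edgeR, *Arntl* fell 3.40-fold in Doxo-NMN against Doxo (log2 fold change -1.77, SE 0.21, adjusted p = 2.03e-07) and 4.50-fold against Ctrl (log2 -2.17, SE 0.21, adjusted p = 1.31e-09). In Doxo against Ctrl the difference was log2 -0.41 (SE 0.20, adjusted p = 0.0671) and missed the threshold. It was log2 -0.50 (adjusted p = 0.0236, under the fold limit given below) without Doxo replicate 6, and passed among hearts with *Myl4* of 100 CPM or more (log2 -0.72, adjusted p = 0.00204) but not among the others (log2 -0.26, adjusted p = 0.491). Those others include Doxo replicate 6, with *Arntl* at 31.8 CPM, and the split was not run without that heart.

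*Npas2* (ENSMUSG00000026077, chr1:39193731-39363236), which can stand in for CLOCK as the partner of BMAL1, was lower in both treated groups. Ctrl hearts ran from 3.71 to 8.97 CPM (median 6.57), Doxo hearts from 2.42 to 7.71 CPM (median 3.29) and Doxo-NMN hearts from 2.77 to 6.68 CPM (median 3.33). The groups overlapped, but the medians of both treated groups lay below the lowest Ctrl heart. *Npas2* fell 1.59-fold in Doxo against Ctrl (log2 -0.67, SE 0.16, adjusted p = 0.000506) and 1.76-fold in Doxo-NMN against Ctrl (log2 -0.81, SE 0.16, adjusted p = 0.00037). Both calls were lost among hearts with *Myl4* under 100 CPM (log2 -0.36, adjusted p = 0.207, and log2 -0.74, adjusted p = 0.0504) and held among the others (log2 -1.07, adjusted p = 5.71e-05, and log2 -0.77, adjusted p = 0.0149). The Doxo hearts under 100 CPM include replicate 6, with *Npas2* at 7.45 CPM. Doxo-NMN and Doxo differed by log2 -0.15 (95% interval -0.48 to 0.19).

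*Nfil3* (ENSMUSG00000056749, chr13:52967209-52981073), the D-box repressor and also an immune and stress response gene, moved in opposite directions in the treated groups. It ran from 12.5 to 32.4 CPM (median 21.6) in Ctrl hearts, from 13.7 to 129 CPM (median 34.3) in Doxo hearts and from 6.48 to 31.2 CPM (median 12.1) in Doxo-NMN hearts. Of 13 Doxo hearts, 7 lay above every Ctrl heart, and of 13 Doxo-NMN hearts, 8 lay below every Ctrl heart. *Nfil3* rose 1.96-fold with Doxo (log2 0.97, SE 0.23, adjusted p = 0.000354), and was 3.18-fold lower in Doxo-NMN than in Doxo (log2 -1.67, SE 0.24, adjusted p = 1.68e-06) and 1.62-fold lower than in Ctrl (log2 -0.70, SE 0.23, adjusted p = 0.0241). The last of these did not pass among hearts with *Myl4* under 100 CPM (log2 -0.70, adjusted p = 0.159) and passed among the others (log2 -1.05, adjusted p = 0.0423).

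*Cry1* (ENSMUSG00000020038, chr10:85131700-85185064), a repressor of the CLOCK and BMAL1 pair, varied least. It ran from 10.1 to 19.8 CPM (median 12.3) in Ctrl hearts, from 11.5 to 21.8 CPM (median 15.9) in Doxo hearts and from 9.04 to 15.1 CPM (median 11.2) in Doxo-NMN hearts. All 3 groups overlapped. Doxo against Ctrl gave log2 0.34 (SE 0.10, adjusted p = 0.00213) and Doxo-NMN against Doxo gave log2 -0.40 (SE 0.10, adjusted p = 0.00103), both under the 1.5-fold limit that a call needs in the acute study.

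The 3 Period genes, which encode the partners of the CRY repressors, were all raised by Doxo, and *Per1* the most. *Per1* (ENSMUSG00000020893, chr11:69095217-69109960) ran from 22.3 to 41.5 CPM (median 27.9) in Ctrl hearts, from 17.9 to 372 CPM (median 220.5) in Doxo hearts and from 74.7 to 181 CPM (median 92.9) in Doxo-NMN hearts. All Doxo hearts but replicate 6 lay above every Ctrl heart, as did all 13 Doxo-NMN hearts. *Per1* rose 7.89-fold with Doxo (log2 2.98, SE 0.25, adjusted p = 9.34e-12), was 2.29-fold lower in Doxo-NMN than in Doxo (log2 -1.19, SE 0.24, adjusted p = 8.73e-05), and was still 3.45-fold higher in Doxo-NMN than in Ctrl (log2 1.79, SE 0.24, adjusted p = 1.02e-06).

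*Per2* (ENSMUSG00000055866, chr1:91415982-91459324) was raised to similar levels in both treated groups. Its values ran from 4.89 to 12.4 CPM (median 8.80) in Ctrl hearts, from 4.04 to 47.6 CPM (median 33.2) in Doxo hearts and from 25.8 to 37.6 CPM (median 28.7) in Doxo-NMN hearts. It rose 3.84-fold with Doxo (log2 1.94, SE 0.19, adjusted p = 8.76e-11) and 3.46-fold in Doxo-NMN against Ctrl (log2 1.79, SE 0.18, adjusted p = 4.65e-09). Doxo-NMN and Doxo differed by log2 -0.15 (95% interval -0.52 to 0.21).

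*Per3* (ENSMUSG00000028957, chr4:151003652-151044665) had its highest median in the Doxo-NMN group. Ctrl hearts ran from 8.73 to 16.8 CPM (median 13.3), Doxo hearts from 7.85 to 39.8 CPM (median 28.4) and Doxo-NMN hearts from 29.5 to 50.1 CPM (median 38.4). No Doxo-NMN heart overlapped the Ctrl hearts, and 4 of 13 lay above every Doxo heart. *Per3* rose 2.11-fold with Doxo (log2 1.08, SE 0.14, adjusted p = 3.57e-08) and 3.06-fold in Doxo-NMN against Ctrl (log2 1.61, SE 0.14, adjusted p = 1.61e-10). Between Doxo-NMN and Doxo it differed by log2 0.54 (SE 0.14, adjusted p = 0.00191), a 1.45-fold difference that stayed under the fold limit. It passed the limit without Doxo replicate 3 (log2 0.60, adjusted p = 0.00075) and among hearts with *Myl4* under 100 CPM (log2 0.73, adjusted p = 0.00482), but not among the others (log2 0.36, adjusted p = 0.0347).

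*Dbp* (ENSMUSG00000059824, chr7:45705088-45710203), the D-box activator and one of the most rhythmic transcripts of the heart, parted from the Period genes. It ran from 5.62 to 23.8 CPM (median 14.3) in Ctrl hearts, from 6.57 to 31.1 CPM (median 17.5) in Doxo hearts and from 20.8 to 70.6 CPM (median 48.8) in Doxo-NMN hearts. Only 2 Doxo hearts lay above every Ctrl heart, and 12 of 13 Doxo-NMN hearts lay above every heart of both other groups. *Dbp* was 2.79-fold higher in Doxo-NMN than in Doxo (log2 1.48, SE 0.21, adjusted p = 1.15e-06) and 3.46-fold higher than in Ctrl (log2 1.79, SE 0.20, adjusted p = 5.19e-08), while Doxo against Ctrl gave log2 0.31 (SE 0.20, adjusted p = 0.167). By the annotation, 18.0% of the exonic bases of *Dbp* are shared with *Sphk2* on the opposite strand, and whether the counting used strand is not given in the sources used here.

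*Nr1d1* (ENSMUSG00000020889, chr11:98767932-98775333), the repressor REV-ERB alpha, was not called in any acute comparison although it belongs to the *Per* and *Dbp* phase. It ran from 57.4 to 118 CPM (median 90.7) in Ctrl hearts, from 26.9 to 170.5 CPM (median 68.7) in Doxo hearts and from 32.2 to 138 CPM (median 52.1) in Doxo-NMN hearts. The groups overlapped, with 6 of 13 Doxo and 8 of 13 Doxo-NMN hearts below every Ctrl heart and 1 heart of each group above. Doxo against Ctrl gave log2 -0.38 (SE 0.20, adjusted p = 0.0985) and Doxo-NMN against Ctrl gave log2 -0.52 (SE 0.20, adjusted p = 0.0531), both of them negative. The second passed without Doxo-NMN replicate 12 (log2 -0.68, adjusted p = 0.00804) or replicate 6 (log2 -0.60, adjusted p = 0.0294), and among hearts with *Myl4* of 100 CPM or more (log2 -0.81, adjusted p = 0.00546) but not among the others (log2 -0.30, adjusted p = 0.6). Of its exonic bases, 8.55% are shared with *Thra* on the opposite strand.

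*Ciart* (ENSMUSG00000038550, chr3:95878503-95882251), or CHRONO, a repressor of the CLOCK and BMAL1 pair, followed the Period genes. It ran from 1.56 to 4.14 CPM (median 3.10) in Ctrl hearts, from 2.47 to 48.3 CPM (median 15.6) in Doxo hearts and from 8.49 to 20.2 CPM (median 11.5) in Doxo-NMN hearts. All Doxo hearts but replicate 6 and all Doxo-NMN hearts lay above every Ctrl heart. *Ciart* rose 5.49-fold with Doxo (log2 2.46, SE 0.28, adjusted p = 1.89e-09) and 4.01-fold in Doxo-NMN against Ctrl (95% interval of the log2 fold change 1.45 to 2.56, adjusted p = 2.18e-06). Doxo-NMN and Doxo differed by log2 -0.45 (95% interval -0.99 to 0.09), and by log2 -0.55 (adjusted p = 0.0473, under the fold limit) without Doxo replicate 6.

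**Figure D2:**
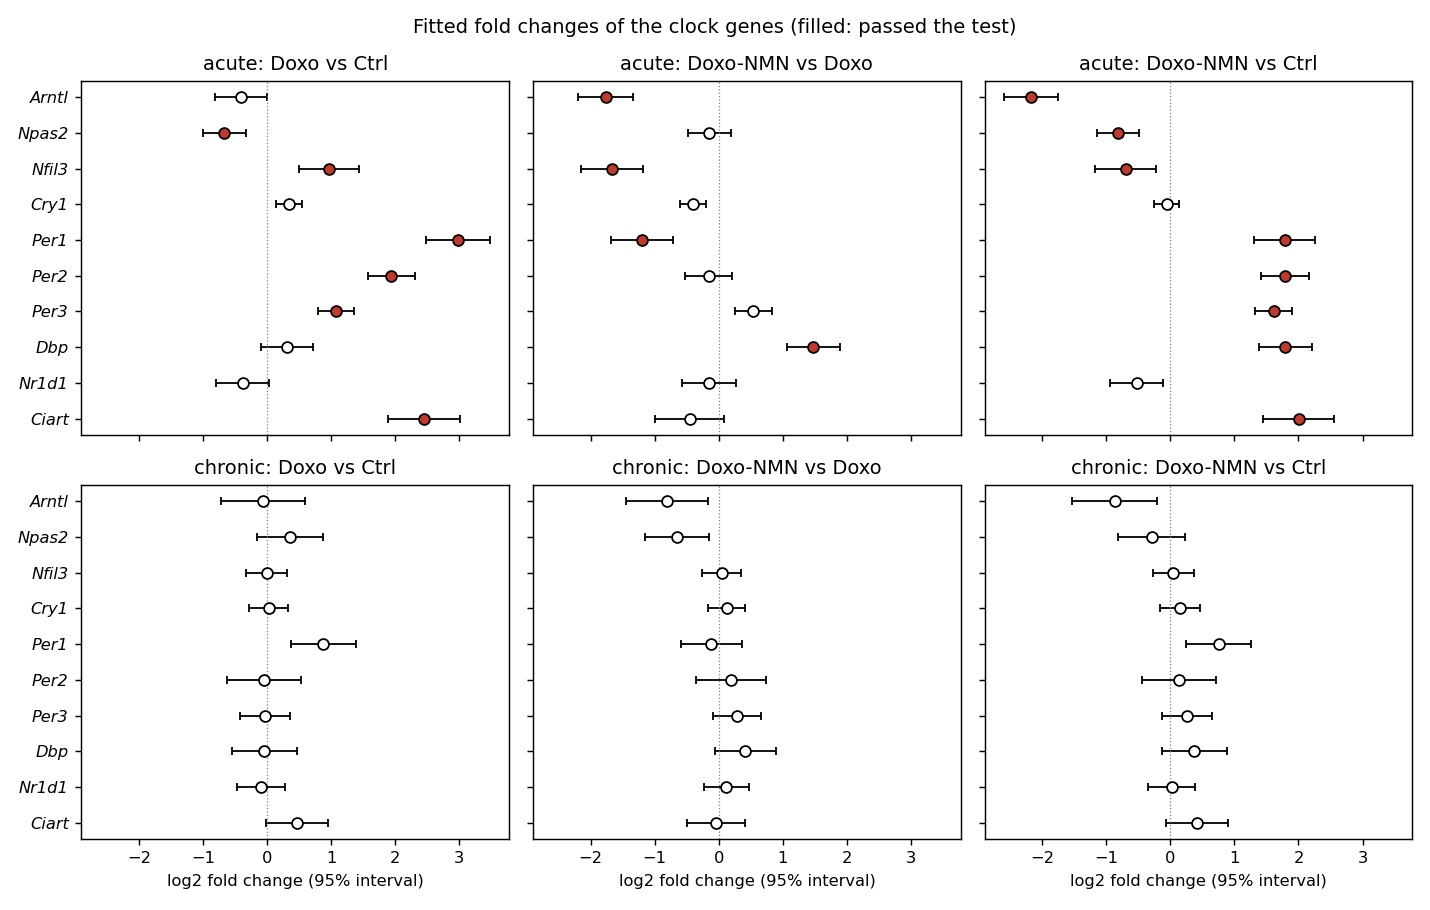
Fitted log2 fold change of each clock gene (x axis) with its 95% interval in the 3 comparisons of the acute study (top) and the chronic study (bottom). Filled points passed the study's call rule: 6, 4 and 8 members from left to right in the acute study and 0 in each chronic comparison.

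Counted together, Doxo against Ctrl called 5 of 10 members higher (*Nfil3*, *Per1*, *Per2*, *Per3* and *Ciart*) and 1 lower (*Npas2*) in the acute study. The rule for a call, a change of 1.5-fold or more with an adjusted p below 0.05, called 14.7% of the 14240 genes tested higher and 15.4% lower. The median log2 fold change was -0.03 over the 4 genes of the *Arntl* phase and 1.51 over the 6 genes of the *Per* and *Dbp* phase, against -0.0016 over all genes tested. In Doxo-NMN against Doxo, 1 member was called higher (*Dbp*, background 8.17%) and 3 lower (*Arntl*, *Nfil3* and *Per1*, background 8.88%). In Doxo-NMN against Ctrl, 5 were called higher (*Per1*, *Per2*, *Per3*, *Dbp* and *Ciart*, background 3.31%) and 3 lower (*Arntl*, *Npas2* and *Nfil3*, background 3.79%). Doxo-NMN and Ctrl hearts did not overlap at all for *Arntl*, *Per1*, *Per2*, *Per3* and *Ciart*. The share of all genes tested without such overlap was not counted, so how unusual this is cannot be said. Medians there were log2 -0.76 for the *Arntl* phase and 1.79 for the *Per* and *Dbp* phase, against 0.0065 over all genes. The 3 comparisons share hearts and are not independent of each other. Leaving out Doxo replicate 6 changed no call of a member in these 3 comparisons.

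To set both phases against each other within each heart, the mean log2 CPM of the 4 *Arntl* phase genes minus the mean of the 6 *Per* and *Dbp* phase genes was taken as a phase contrast. Its zero has no meaning, because transcript lengths differ, and it is given as a value with no test, because the members were chosen with results known. In the acute study it was -0.06 ± 0.52 (SD, n = 14) in Ctrl hearts, -1.33 ± 0.77 (SD, n = 13) in Doxo hearts and -2.43 ± 0.31 (SD, n = 13) in Doxo-NMN hearts. Ctrl hearts ran from -0.79 to 0.89 and Doxo-NMN hearts from -2.90 to -1.74, without overlap, while Doxo hearts ran from -2.27 to 0.71 with replicate 6 at the top.

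The terms that made up the shift differed between the treated groups. From Ctrl to Doxo, the mean of the *Arntl* phase moved by -0.03 log2 units and that of the *Per* and *Dbp* phase by 1.24. The first of these averaged over fitted differences of both signs: log2 -0.41 for *Arntl*, -0.67 for *Npas2*, 0.97 for *Nfil3* and 0.34 for *Cry1*. From Doxo to Doxo-NMN, the *Arntl* phase moved by -0.94 and the *Per* and *Dbp* phase by 0.17. The 0.17 also averaged over both signs. Fitted differences were log2 1.48 for *Dbp* and 0.54 for *Per3*. They were -1.19 for *Per1*, -0.45 for *Ciart*, -0.15 for *Per2* and -0.15 for *Nr1d1*. The log2 difference of *Per1* and *Dbp*, both of which belong to the same phase, was 1.19 ± 0.41 (SD, n = 14) in Ctrl hearts, 3.59 ± 1.23 (SD, n = 13) in Doxo hearts and 1.11 ± 0.73 (SD, n = 13) in Doxo-NMN hearts. Of 13 Doxo hearts, 11 lay above every Ctrl heart, the exceptions being replicate 6 (0.94) and replicate 7 (1.23), whose *Dbp* of 31.1 CPM was the highest of its group. Doxo-NMN hearts ran from 0.14 to 3.12, with replicate 10, the heart lowest in *Dbp* of that group, as the only one above the Ctrl range.

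**Figure D3:**
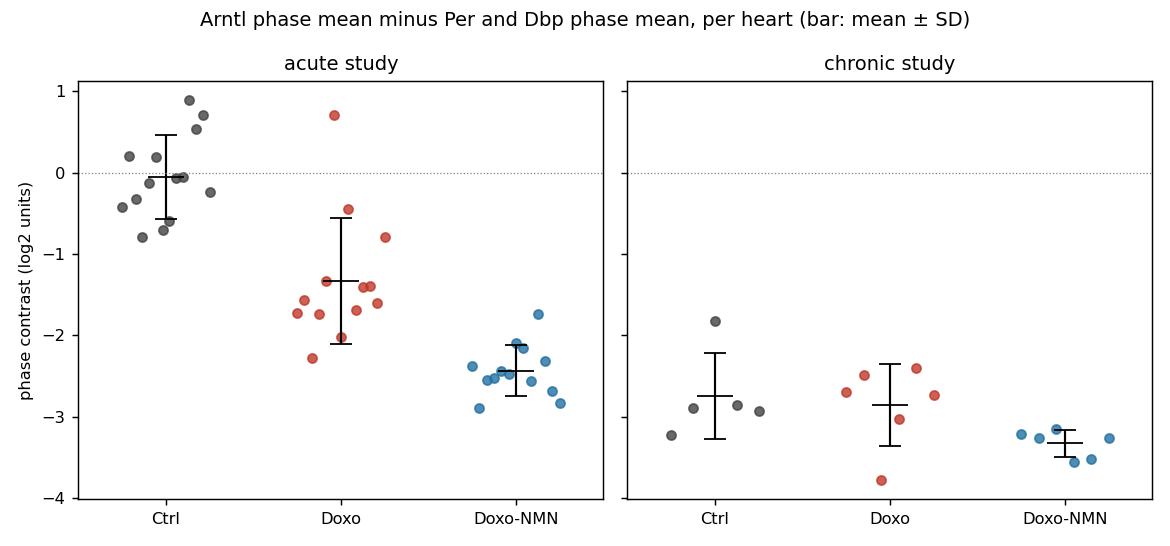
Phase contrast of each heart (y axis, log2 units: mean of Arntl, Npas2, Nfil3 and Cry1 minus mean of the other 6 members) by group in the acute study (left) and the chronic study (right), with mean ± SD. Acute hearts step down from Ctrl (mean -0.06) to Doxo (-1.33) to Doxo-NMN (-2.43), and chronic hearts lie between -3.78 and -1.83 in all 3 groups.

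Hearts of 1 acute group also differed among themselves along the same axis, most plainly in Ctrl hearts. Over the 14 Ctrl hearts, the log2 level of *Arntl* was negatively related to that of *Dbp* (Pearson r = -0.92, Spearman rho = -0.89) and *Per1* (r = -0.88, rho = -0.86). Of 27 relations examined (9 members in 3 groups, permutation tests adjusted together), 8 passed. In Ctrl hearts these were *Dbp* (permutation p = 1e-05, the smallest that the permutations can give, adjusted p = 0.00027, rank correlation p = 6e-05), *Per1* (p = 3e-05, adjusted p = 0.000405, rank correlation p = 0.00014), *Per2* (r = -0.82, rho = -0.81, p = 0.00044, adjusted p = 0.00396), *Per3* (r = -0.74, rho = -0.73, p = 0.00253, adjusted p = 0.0138) and *Ciart*. Without the 2 hearts farthest from the *Arntl* median, r was -0.85 for *Dbp*, -0.86 for *Per1*, -0.77 for *Per2* and -0.70 for *Per3*. *Ciart* (r = -0.64, rho = -0.57, permutation p = 0.0137, adjusted p = 0.0463) fell to r = -0.33 without those hearts, so its relation rests on them. Within Ctrl hearts of *Myl4* under 100 CPM (n = 6) and of 100 CPM or more (n = 8), r with *Dbp* was -0.96 and -0.91 and r with *Per1* was -0.86 and -0.89.

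In Doxo hearts these relations were not seen in the same form. *Arntl* and *Dbp* had r = -0.38 (rho = -0.50, permutation p = 0.196, adjusted p = 0.278) and *Arntl* and *Per1* had r = -0.0012 (rho = 0.38, permutation p = 0.997, adjusted p = 0.997). Several of these values depended on 1 heart. Without replicate 6, *Per1* had r = 0.72 (rho = 0.69, permutation p = 0.0102, adjusted p = 0.032, rank correlation adjusted p = 0.0613, n = 12), and r = 0.57 after leaving out a further 2 hearts. Within the 8 Doxo hearts of *Myl4* under 100 CPM, replicate 6 included, *Per1* had r = -0.18. Leaving out replicate 6 also moved *Cry1* from r = 0.60 (rho = 0.41, permutation p = 0.0311, adjusted p = 0.0841) to 0.78 (rho = 0.57, permutation p = 0.0031, adjusted p = 0.0139) and *Ciart* from 0.26 (rho = 0.37, permutation p = 0.386, adjusted p = 0.513) to 0.68 (rho = 0.66, permutation p = 0.0145, adjusted p = 0.0356). *Per2* turned from r = -0.23 (rho = 0.23, adjusted p = 0.513) to 0.61 (rho = 0.48, adjusted p = 0.0621, permutation tests). By rank correlation none of these passed (adjusted p = 0.14, 0.0676 and 0.198 without replicate 6), and r fell to 0.47, 0.46 and 0.21 without a further 2 hearts. *Nr1d1* was positively related to *Arntl* in Doxo hearts (r = 0.76, rho = 0.79, permutation p = 0.00298, adjusted p = 0.0138), and r was 0.83 without the 2 farthest hearts, 0.96 within the 8 hearts of *Myl4* under 100 CPM, and 0.74 without replicate 6. In Ctrl hearts the same pair had r = -0.61 (rho = -0.62, permutation p = 0.0186, adjusted p = 0.0557). The difference between the groups' correlations was not tested.

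In Doxo-NMN hearts, *Arntl* was negatively related to *Cry1* (r = -0.73, rho = -0.75, permutation p = 0.00306, adjusted p = 0.0138), with r = -0.70 without the 2 farthest hearts and r = -0.88 within the 9 hearts of *Myl4* under 100 CPM. *Ciart* passed by Pearson's r only (r = -0.69, permutation p = 0.0107, adjusted p = 0.0411, rank correlation adjusted p = 0.209). *Dbp* did not pass (r = -0.53, rho = -0.18, permutation p = 0.0664, adjusted p = 0.149), and its r was 0.15 without the 2 farthest hearts.

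**Figure D4:**
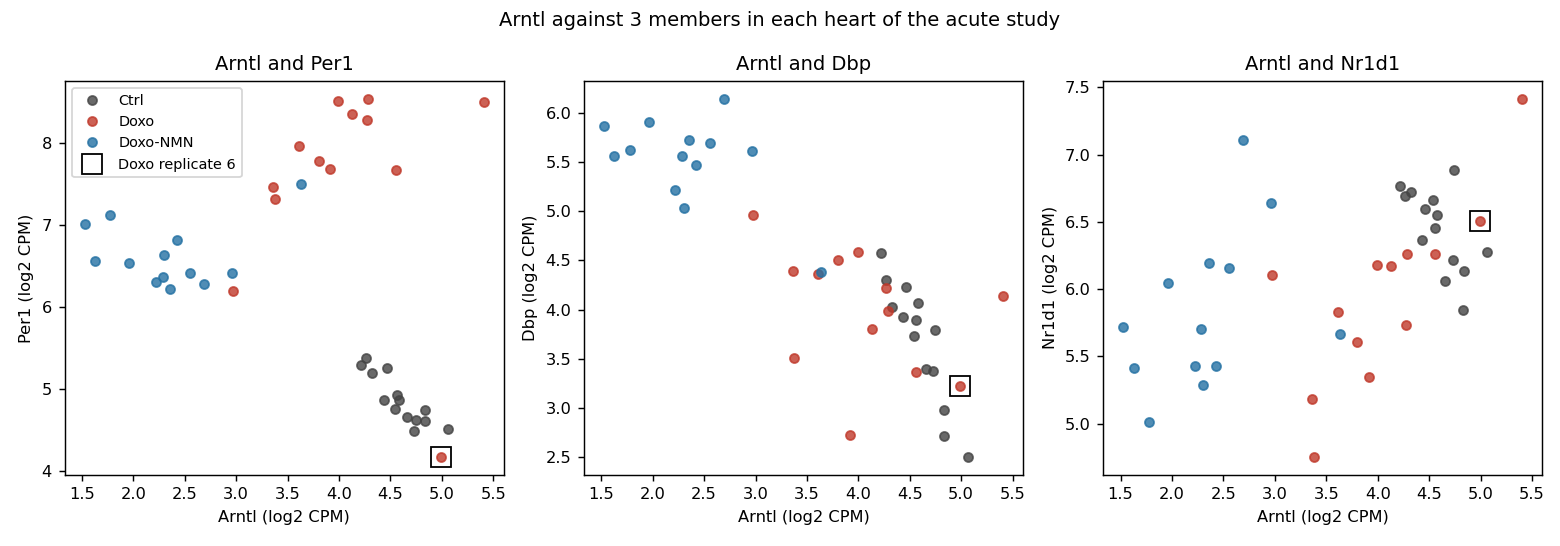
Log2 level of Arntl (x axis, log2 CPM) against Per1, Dbp and Nr1d1 (y axes, log2 CPM) in each acute heart, coloured by group, with the heart labelled Doxo replicate 6 boxed. Ctrl hearts run downward for Per1 (r = -0.88) and Dbp (r = -0.92), and the boxed heart lies at the Arntl-high end of the Ctrl hearts in both.

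The genes most like *Arntl* were sought over the 40 acute hearts after the group means had been subtracted, among 14239 genes. The highest Pearson correlations were those of *Tnpo1*, a nuclear import receptor (0.74), *Iffo2* (0.71), *Tec*, a tyrosine kinase (0.70), *Ptpre* (0.70) and *Slc38a9*, a lysosomal amino acid transporter (0.69). The lowest were those of *Pla2g4e* (-0.75), *Wee1*, the mitotic inhibitor kinase and a classic E-box output of the clock (-0.73), *Homer1* (-0.72), *Hs3st5* (-0.72) and *Dusp18* (-0.69). Over the 17 chronic hearts the same measure was 0.30, 0.19, 0.51, -0.04 and -0.14 for the first 5 and -0.25, -0.43, -0.15, 0.06 and 0.23 for the last 5. Among the members, *Nr1d1* (0.49) ranked 197 from the top and *Dbp* (-0.49) ranked 252 from the bottom. The pooled value of *Nr1d1* mixes opposite signs, since its r with *Arntl* was -0.61 in Ctrl, 0.76 in Doxo and 0.41 in Doxo-NMN hearts. That of *Dbp* was negative in each group (-0.92, -0.38 and -0.53). The ranking was not run without Doxo replicate 6. In chronic hearts *Npas2* (0.81) and *Per3* (-0.80) stood closest to *Arntl* and farthest from it among members. These values are descriptions over hearts that share a table and its normalization.

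Of 17 other clock regulators, 7 were called higher (background 14.7%) and 0 lower (background 15.4%) in acute Doxo against Ctrl. Among the 7 were *Cry2*, the second cryptochrome (log2 1.74, adjusted p = 7.99e-11), and *Sirt1*, a NAD+-dependent deacetylase (log2 0.97, adjusted p = 2.75e-08). In Doxo-NMN against Doxo, 6 were called lower (background 8.88%) and 0 higher, *Cry2* (log2 -0.84) and *Sirt1* (log2 -0.78) among them. In Doxo-NMN against Ctrl, 2 were called higher (*Cry2* and *Nr1d2*, background 3.31%) and 1 lower (background 3.79%). That one was *Clock* itself, the partner of BMAL1, which ran from 69.6 to 81.8 CPM among Ctrl hearts, from 55.3 to 74.3 CPM among Doxo hearts and up to 58.0 CPM among Doxo-NMN hearts. *Clock* gave log2 -0.61 (adjusted p = 3.91e-11) in Doxo-NMN against Ctrl and log2 -0.28 (adjusted p = 1.1e-05) in Doxo against Ctrl, the latter under the fold limit.

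Of 9 other clock outputs, 4 were called higher (background 14.7%) and 0 lower (background 15.4%) with Doxo. Among the 4 were *Tspan4* (log2 1.94, adjusted p = 1.79e-11), *Nampt*, the rate-limiting enzyme of NAD+ salvage (log2 0.94, adjusted p = 1.59e-09), and *Tef*, a relative of *Dbp* that binds the same D-box (log2 0.88, adjusted p = 9.35e-08). In Doxo-NMN against Ctrl 5 of the 9 were called higher (background 3.31%) and 0 lower. *Wee1* moved as *Dbp* did: Doxo against Ctrl gave log2 0.27 (adjusted p = 0.145), and *Wee1* was higher in Doxo-NMN than in Doxo (log2 0.73, adjusted p = 0.000452) and than in Ctrl (log2 0.99, adjusted p = 3.21e-05). In Doxo-NMN against Doxo, 1 of the 9 was called higher (*Wee1*, background 8.17%) and 1 lower (*Tspan4*, log2 -0.90, background 8.88%).

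Since *Per1* answers to hormones and to activity as well as to the clock, the lists that share those inputs are given beside it. Of 10 glucocorticoid-induced genes, 7 were called higher (background 14.7%) and 0 lower (background 15.4%) with Doxo, led by *Mt2* (log2 4.30, adjusted p = 2.51e-10), *Cebpd* (log2 2.31, adjusted p = 6.36e-10) and *Fkbp5* (log2 1.58, adjusted p = 8.29e-09). The 3 not called were *Tsc22d3* (log2 0.10, adjusted p = 0.49), *Dusp1* (log2 0.30, adjusted p = 0.108) and *Zbtb16* (log2 0.24, adjusted p = 0.0704). In Doxo-NMN against Doxo, 6 of the 10 were called lower (background 8.88%) and 0 higher. In Doxo-NMN against Ctrl 4 of the 10 were called higher (background 3.31%) and 0 lower. The median of their summed level was 682 CPM over Ctrl hearts, 1247 CPM over Doxo hearts and 841 CPM over Doxo-NMN hearts. Of 8 immediate early genes, 6 were called higher and 0 lower with Doxo (same backgrounds), led by *Sik1* (log2 2.07), *Nr4a1* (log2 2.26) and *Junb* (log2 2.81). In Doxo-NMN against Doxo, 6 of the 8 were called lower (background 8.88%) and 0 higher. *Crem*, the cAMP-responsive modulator, gave log2 -0.42 with Doxo (adjusted p = 0.00437), under the fold limit. In Doxo-NMN against Ctrl 2 of these 8 were called higher (background 3.31%) and 1 lower (background 3.79%). None of the 4 lists of other genes held a called gene in any chronic comparison. Doxo replicate 6 had the lowest summed level of glucocorticoid-induced genes in its group, 597 CPM against 839 to 1596 CPM in the other 12 hearts. The part of these inputs in the level of *Per1* was not tested.

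In the chronic study no member was called in any comparison. The rule there was an adjusted p under 0.05, which called 0.0602% of 14960 genes in Doxo against Ctrl, 0% in Doxo-NMN against Doxo and 0.0401% in Doxo-NMN against Ctrl, so almost nothing passed in the table as a whole. At an unadjusted p under 0.05, 1174, 441 and 707 genes stood in these comparisons, and in Doxo-NMN against Doxo DESeq2 and limma voom also called 0 genes. Chance alone puts a share of 0.05 of the genes there, and the counts of both Doxo-NMN comparisons lie below that share.

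**Figure D5:**
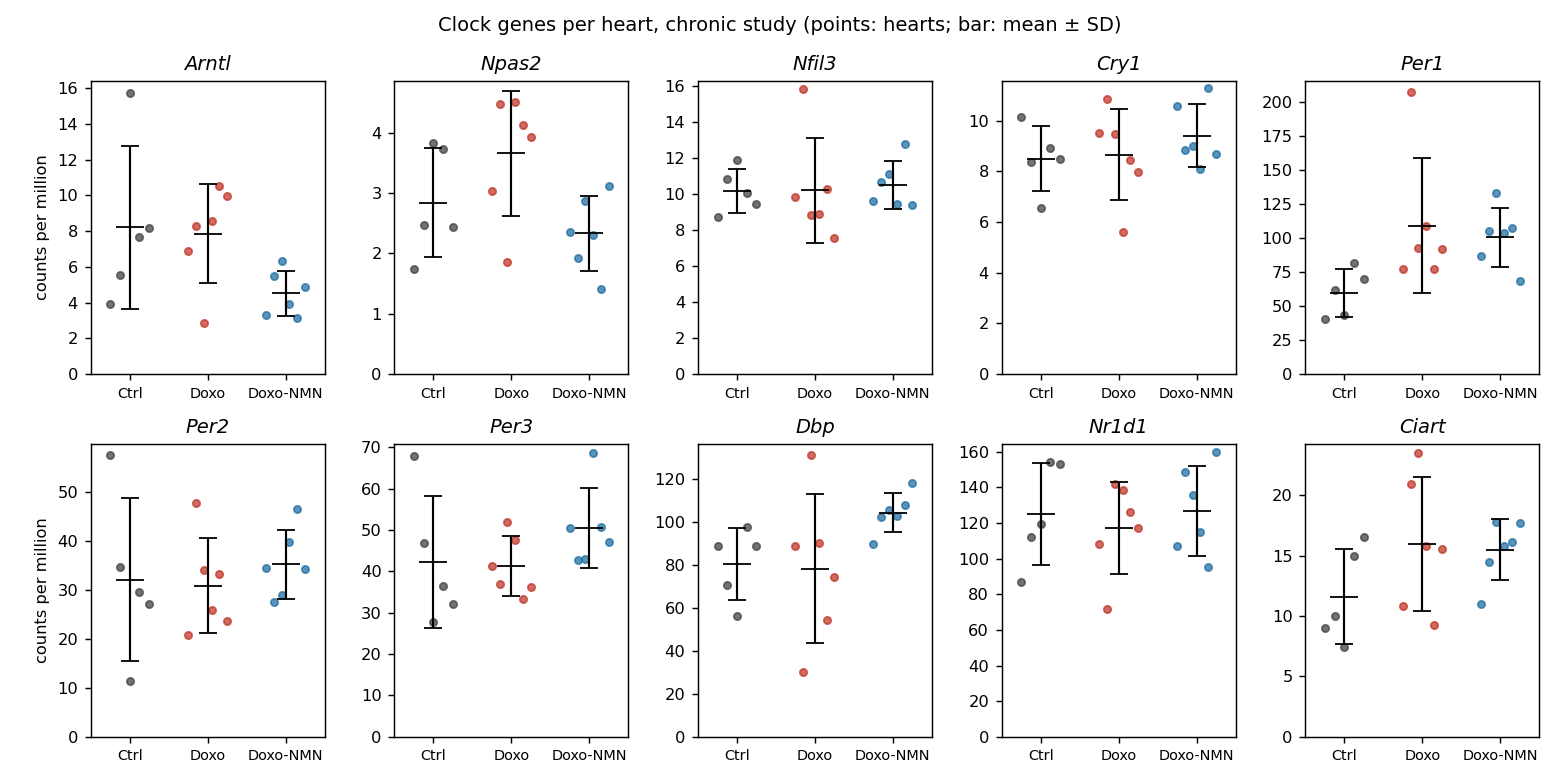
Level of each clock gene in CPM (y axis, from 0) in every heart of the chronic study, by group. Each point is 1 heart and bars give the mean ± SD (5 Ctrl, 6 Doxo and 6 Doxo-NMN hearts). The groups overlap for all 10 genes, and 1 Doxo heart stands high for Per1 at 207 CPM.

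*Arntl* in the 5 chronic Ctrl hearts was at 3.92, 5.57, 15.8, 7.66 and 8.15 CPM. It ran from 2.86 to 10.5 CPM (median 8.43) in Doxo hearts and from 3.12 to 6.34 CPM (median 4.41) in Doxo-NMN hearts. The groups overlapped, and the difference of Doxo-NMN from Doxo was log2 -0.80 (95% interval -1.44 to -0.16, adjusted p = 0.999) and from Ctrl log2 -0.87 (95% interval -1.53 to -0.20, adjusted p = 0.977). Doxo against Ctrl gave log2 -0.07 (95% interval -0.72 to 0.59). *Npas2* was also lowest on average in Doxo-NMN hearts, with Doxo-NMN against Doxo at log2 -0.65 (95% interval -1.15 to -0.16, adjusted p = 0.999). *Nfil3* and *Cry1* lay within log2 0.15 of equality in all 3 comparisons.

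*Per1* was the member that stood highest against Ctrl in chronic Doxo hearts. The 5 Ctrl hearts were at 40.8, 62.0, 43.1, 81.9 and 69.6 CPM, Doxo hearts ran from 77.1 to 207 CPM (median 92.4) and Doxo-NMN hearts from 68.1 to 133 CPM (median 104). The Ctrl heart at 81.9 CPM lay within the range of both treated groups and that at 69.6 CPM within the Doxo-NMN range, and Doxo against Ctrl gave log2 0.88 (95% interval 0.37 to 1.39, unadjusted p = 0.00184, adjusted p = 0.418), which did not pass. The highest Doxo heart was replicate 2, the library that stood apart in red cell, neutrophil and glucocorticoid-induced genes, and it also held the lowest *Dbp* of the chronic study (29.9 CPM). Without it the difference in *Per1* was log2 0.59 (adjusted p = 0.663).

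*Dbp* in the chronic Ctrl hearts was at 88.5, 70.5, 56.1, 97.7 and 88.7 CPM, and ran from 29.9 to 131 CPM (median 81.5) in Doxo and from 89.5 to 118 CPM (median 104) in Doxo-NMN hearts. Its difference between Doxo-NMN and Doxo was log2 0.42 (95% interval -0.06 to 0.89, adjusted p = 0.999). *Per2*, *Per3*, *Nr1d1* and *Ciart* differed between Doxo and Ctrl by log2 -0.05, -0.03, -0.10 and 0.46, none past the test. The intervals left room for moderate changes, as for *Per2* (95% interval -0.63 to 0.52) and *Ciart* (95% interval -0.02 to 0.95). The phase contrast was -2.74 ± 0.53 (SD, n = 5) in Ctrl, -2.85 ± 0.50 (SD, n = 6) in Doxo and -3.32 ± 0.17 (SD, n = 6) in Doxo-NMN hearts. The Doxo-NMN group had the lowest mean and the smallest SD, as in the acute study, but the ranges of the chronic groups overlapped. The SD of the Ctrl group included replicate 3 at -1.83, against -3.22 to -2.86 in the other Ctrl hearts. The difference in spread was not tested. In Doxo-NMN hearts of the chronic study NMN was taken with drinking water, so the interval since the last intake is not defined there.

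The untreated hearts of the studies themselves stood apart, as values only. The tables were normalized separately and differ in the number of genes counted, in supplier, age, sequencing site and collection day. Marker levels differed too. The sum of 4 skeletal muscle genes ran from 0.155 to 1.18 CPM in acute Ctrl and from 365 to 1446 CPM in chronic Ctrl hearts. The sum of 6 atrial genes had a median of 2897 CPM in acute Ctrl and 92.3 CPM in chronic Ctrl hearts. The collection hour, not given for either study, may differ as well. These cannot be told apart. Mean *Arntl* was 24.3 ± 4.1 CPM (SD, n = 14) in acute Ctrl and 8.21 ± 4.54 CPM (SD, n = 5) in chronic Ctrl hearts, and mean *Dbp* was 13.8 ± 5.2 CPM (SD, n = 14) and 80.3 ± 16.8 CPM (SD, n = 5).

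Whether the Doxo effect itself differed between the studies was tested with an interaction term over the 13195 genes tested in both, of which 23.1% passed an adjusted p under 0.05. Of the members, 5 of 10 passed. The acute minus chronic difference in log2 fold change was 2.12 for *Per1* (SE 0.455, adjusted p = 0.00334), 2.02 for *Per2* (95% interval 1.19 to 2.84, adjusted p = 0.00223), 2.01 for *Ciart* (95% interval 0.94 to 3.08, adjusted p = 0.00886), 1.13 for *Per3* (95% interval 0.54 to 1.72, adjusted p = 0.0083) and -1.01 for *Npas2* (95% interval -1.68 to -0.34, adjusted p = 0.0276). It was -0.32 for *Arntl* (95% interval -1.12 to 0.47, adjusted p = 0.558) and 0.37 for *Dbp* (95% interval -0.43 to 1.17, adjusted p = 0.504). *Nfil3* (0.99, adjusted p = 0.0746) passed once acute Doxo replicate 6 was left out (1.03, adjusted p = 0.0496) or chronic Doxo replicate 2 was (1.15, adjusted p = 0.0392). Without the latter *Per1* was at 2.40 (adjusted p = 0.000644) and all 5 that passed still did. Ctrl levels themselves differed between the studies, as values only. Mean *Per2* was 8.60 CPM in acute Ctrl and 32.1 CPM in chronic Ctrl hearts, against 33.1 CPM in acute Doxo hearts. Mean *Ciart* was 3.06 CPM in acute Ctrl and 11.6 CPM in chronic Ctrl hearts. Dose schedule, day, age, sequencing site and the levels of skeletal muscle and atrial markers all differ between the studies. The collection hour is not given for either. The source of the difference, the starting level included, cannot be told apart.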

How the data were processed

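RNA from frozen hearts was poly(A)-selected and sequenced as single-end reads, at Genewiz for the acute and at Azenta for the chronic study. The authors mapped reads to mm10 with STAR and deposited raw read counts per gene from featureCounts 2.0.0 (the submitters' processing notes name STAR 2.7.3a). Among deposited acute counts of 1 to 20, a median of 73.6% per heart were even numbers (40.3% in the chronic table), so counts divided by 2 were tried as an alternative chosen after seeing the data. The lowest chi-square per gene between hearts of a group was 10.4 (acute) and 5.49 (chronic), so no library repeated another.

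Counts of each study were filtered with filterByExpr, scaled by TMM and tested with the quasi-likelihood F-test of edgeR 4.0.16 (R 4.3.3) over all 3 groups, with Benjamini-Hochberg adjustment over all genes. Calls needed an adjusted p under 0.05 and, in the acute study, a fold change of at least 1.5. CPM values use TMM-scaled library sizes, and log2 CPM a prior count of 2. Correlations used 100000 two-sided permutations. Alternatives were DESeq2 1.42.0, limma 3.58.1 (voom), RLE factors, other filters, other sample sets, a replicate block and leaving out each heart. The fits were tested on simulated data.

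The members and lists were chosen with earlier results of these data known. All 10 members are named, up to 3 genes per direction of each other list by adjusted p in acute Doxo against Ctrl, and the 5 genes most and least like *Arntl*. One gene that this rule names is not reported here. *Clock*, *Wee1*, *Nr1d2* and *Tspan4* in other comparisons were named after their values were seen, as were *Dcn*, *Cd68*, *Tsc22d3*, *Dusp1* and *Zbtb16*. The same holds for *Myh6*, *Actc1*, *Tnnt2* and *Kdr*. Positions are from GENCODE vM21 (mm10) and sequences from RefSeq (GRCm38.p6). *Per2* had no entry in that table.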

Additional observations from a re-analysis of the deposited data

Results flagged for a closer look

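Among the chronic groups, small enough for a check of single hearts, 33 sets of values were examined (10 members and the phase contrast in 3 groups) and 4 had a heart far from the rest. Chance gives about 1 such set in 20. *Arntl* in Doxo replicate 3 was at 2.86 CPM against 6.88 to 10.5 CPM in the other Doxo hearts. *Per1* in Doxo replicate 2 was at 207 CPM against 77.1 to 109 CPM, in the heart that also held the highest glucocorticoid-induced genes. *Per3* in Doxo-NMN replicate 4 was at 68.8 CPM against 42.7 to 50.8 CPM. The phase contrast of Ctrl replicate 3 was -1.83 against -3.22 to -2.86 in the other Ctrl hearts.

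The effect of Doxo differed between the acute and the chronic study by the interaction term for *Npas2* (-1.01 on the log2 scale), *Per1* (2.12), *Per2* (2.02), *Per3* (1.13) and *Ciart* (2.01). The regimen, the age, the day and the unknown hour of collection, the starting level and the sequencing site cannot be told apart there. The same holds for the skeletal muscle and atrial markers, whose levels also differed between the studies.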

How the results depend on the processing

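Of 680 alternative values for single members, 635 kept their direction and their side of the threshold, 10 passed where the reported value did not, 5 no longer passed, and 30 changed sign, none of them a called value. In the acute study the number of members called stayed between 5 and 8 for Doxo against Ctrl, 4 and 5 for Doxo-NMN against Doxo, and 6 and 9 for Doxo-NMN against Ctrl, and it was 0 in the chronic study under every alternative run. Dividing the acute counts by 2 moved none of its values across the threshold, and leaving chronic Doxo replicate 2 out of the interaction moved 1 (*Nfil3*). Both were chosen after seeing the data. The cause of the changes below was not tested.

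Replicate numbers did not pair the hearts: same-numbered hearts had deviations correlated between -0.62 and 0.58 in the acute study (18 of 39 pairs over 0.1) and between -0.26 and 0.41 in the chronic study (4 of 16 pairs over 0.1). With the replicate block, *Per3* passed in acute Doxo-NMN against Doxo (log2 0.59, adjusted p = 0.000526). The block left 3 of 5 members with an interaction past the threshold, without *Npas2* (-1.01, adjusted p = 0.0861) and *Ciart* (1.72, adjusted p = 0.0637), and 1301 of 3050 genes in all. In chronic Doxo against Ctrl it gave 0.03 for *Nfil3*, 0.07 for *Per2* and 0.03 for *Per3*, all with a changed sign.

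Over all genes, acute Doxo-NMN against Ctrl called 1012, which became 1698 with no filter on low counts, 647 with at least 10 counts in every heart, 575 among hearts of *Myl4* under 100 CPM and 599 among the others. Chronic Doxo against Ctrl called 9, which became 24 with DESeq2, 54 with voom, 15 with no filter, 0 with at least 10 counts in every heart, and 5 to 11 when each heart was left out (5 without Ctrl replicate 2, 3 or 5). Chronic Doxo-NMN against Ctrl called 6, against 26 with voom and 0 with at least 10 counts. Without acute Doxo replicate 6 the interaction passed for 4609 genes in all, and without chronic Doxo replicate 2 for 4001. The share of higher calls moved from 46.6% to 62.5% with no filter and to 37.3% with voom in acute Doxo-NMN against Ctrl.

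With voom, *Arntl* (log2 -0.62, adjusted p = 0.000158) and *Nr1d1* (log2 -0.61, adjusted p = 0.00425) passed in acute Doxo against Ctrl. Signs changed with voom for *Nr1d1* in acute Doxo-NMN against Doxo (0.03), for *Per2* (0.44), *Per3* (0.29) and *Dbp* (0.14) in chronic Doxo against Ctrl, for *Per1* (0.18) and *Ciart* (0.06) in chronic Doxo-NMN against Doxo, and for *Nr1d1* in chronic Doxo-NMN against Ctrl (-0.06). Among hearts of *Myl4* of 100 CPM or more, *Npas2* gave 0.30 in acute Doxo-NMN against Doxo and *Cry1* 0.02 against Ctrl. *Nfil3* in chronic Doxo against Ctrl was 0.00 with DESeq2, RLE factors or 2 groups only.

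Leaving out each heart in turn changed signs only among values that were not called. In the acute study *Nr1d1* ran from -0.30 to 0.04 (Doxo-NMN against Doxo) and *Cry1* from -0.09 to 0.01 (Doxo-NMN against Ctrl). In chronic Doxo against Ctrl *Arntl* ran from -0.24 to 0.31, *Nfil3* from -0.17 to 0.08, *Cry1* from -0.06 to 0.12, *Per2* from -0.27 to 0.27, *Per3* from -0.15 to 0.20, *Dbp* from -0.25 to 0.13 and *Nr1d1* from -0.20 to 0.01. In chronic Doxo-NMN against Doxo *Nfil3* ran from -0.04 to 0.21, *Per1* from -0.21 to 0.16 and *Ciart* from -0.17 to 0.09, and against Ctrl *Nfil3* from -0.02 to 0.10, *Per2* from -0.08 to 0.45 and *Nr1d1* from -0.09 to 0.11.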
